A study of Aconitum japonicum with 4 samples.

Results

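The transcriptomes of the mother root and the daughter root of *Aconitum japonicum* were compared transcript by transcript. The mother root is the main tuberous root of the plant, and daughter roots are the new roots that sprout from it. The comparison took every transcript of the de novo assembly with at least 10 sequenced fragments in either library, which left 46515 of 129760 transcripts. Of these, 41471 had at least 10 fragments in mother root and 39788 in daughter root. The plants grew in the greenhouse of a university in Hokkaido, Japan, and no treatment, genotype or plant age is named for either organ. RNA came from a single biological replicate per organ, so each organ is 1 library and no difference below has a replicate check. Leaf and rootlet, the other 2 libraries of the series, were left out. Messenger RNA was captured with oligo(dT) and made into strand-specific libraries.

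*Aconitum* tubers are used in medicine for their diterpene alkaloids, of which aconitine is the best known. The carbon skeleton of these alkaloids starts from the 5-carbon units of isoprenoid metabolism, made in the cytosol by the mevalonate (MVA) pathway and in plastids by the methylerythritol phosphate (MEP) pathway. Geranylgeranyl diphosphate synthase (GGPPS) joins these units, copalyl diphosphate synthase (CDPS) and kaurene synthase (KS) close the rings, and kaurene oxidase (KO) and other cytochrome P450s oxidize the product. The mother root feeds the shoot of the current season, whereas the daughter root grows, fills with starch and carries the plant to the next season.

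Levels are given as FPKM, fragments per kilobase of transcript scaled to the library total, which can be compared between transcripts of different length. The daughter/mother ratio is the FPKM in daughter root over that in mother root, and the mother/daughter ratio its inverse. Exact 95% limits from the 2 fragment counts are given in parentheses and leave the variation between plants out, since they describe counting error alone. Where a library had 0 fragments, it was set to 3 fragments, and the ratio is one against this floor, not a strict lower bound. The floor puts 0 above counts of 1 or 2, so it can lower the numbers of transcripts at 10-fold and beyond. The libraries held 11801534 fragments from mother root and 12792781 from daughter root, and the transcripts compared took 98.4% and 98.9% of them. Of the transcripts left out, 12283 had no fragment in either organ and 70962 had 1 to 9 in the higher one. Green tissue was looked for with 3 photosynthesis transcripts of the annotation, none of which exceeded 3 fragments in either library. The annotation used was partial and the level of these 3 in leaf was not examined, so this cannot exclude green tissue. No marker of one root type against the other was among the lists used here. In whole organs, fewer cells of a type and less RNA per cell cannot be told apart.

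Most transcripts differed little between the organs. The daughter/mother ratio lay within 2-fold for 29884 transcripts, 64.2% of those compared. In daughter root, 6892 transcripts (14.8%) were at least 2-fold higher, and in mother root 9739 (20.9%) were. The median log2 daughter/mother ratio was -0.21, with quartiles at -0.85 and 0.46. The middle 90% of the transcripts lay between -2.31 and 2.29 on this log2 scale. The counting limits lay wholly on the daughter root side for 9612 transcripts (20.7%) and wholly on the mother root side for 14447 (31.1%). Among the transcripts past 2-fold, the counting limits still held 1 for 935 of those higher in daughter root and 1754 of those higher in mother root.

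The excess on the mother root side depended on scaling. Median-of-ratios factors, which set the median ratio of the 34744 transcripts with at least 10 fragments in both libraries to 1, raised every log2 ratio by 0.17. With these factors, 8085 transcripts (17.4%) were at least 2-fold higher in daughter root and 7941 (17.1%) in mother root. Values below are those of the deposited FPKM, so a daughter/mother ratio close to 1 can turn with this shift.

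**Figure D1:**
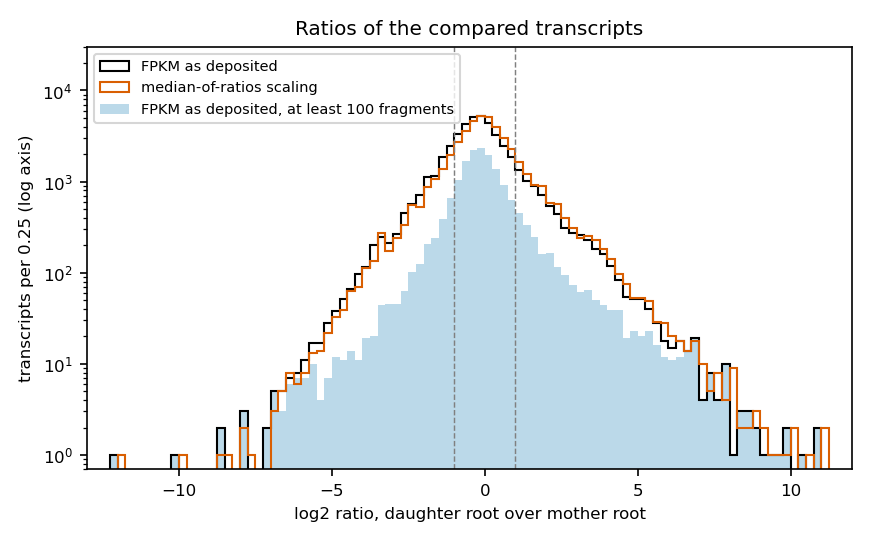
Distribution of the log2 daughter/mother ratio over the 46515 transcripts, with the number of transcripts per bin of 0.25 on a log axis. The black line shows deposited FPKM, the orange line the same after median-of-ratios scaling, and the blue area the transcripts with at least 100 fragments. Dashed lines mark 2-fold, which 14.8% of the transcripts passed toward daughter root and 20.9% toward mother root.

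The large differences took unequal shares of the libraries. The 6892 transcripts at least 2-fold higher in daughter root held 24.2% of the daughter root fragments and 5.15% of those of mother root. The 9739 transcripts at least 2-fold higher in mother root held 21.5% of its fragments and 6.79% of those of daughter root. At 10-fold, 1068 transcripts toward daughter root held 7.76% of its fragments, whereas 865 toward mother root held 1.54% of the mother root fragments. At 100-fold, 69 transcripts were higher in daughter root, with 3.22% of its fragments, and 15 were higher in mother root, with 0.377%. Transcripts past 10-fold thus took a larger share of the daughter root library than of the mother root library.

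Abundant and long transcripts contributed differently to these counts. Among the 2112 transcripts with a mean of 100 FPKM or more, 4.4% were at least 10-fold higher in daughter root and 1.09% in mother root, and the median log2 ratio was -0.02. Among the 20858 transcripts with a mean between 1 and 5 FPKM, the corresponding shares were 2.59% and 2.49%, with a median of -0.31. By length, 18.4% of the transcripts of 500 bases or less were at least 2-fold higher in daughter root and 26.9% in mother root. For transcripts over 2000 bases these shares were 7.89% and 10.8%. Longer transcripts collect more fragments at the same FPKM, and how much of this difference is counting error was not tested.

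The most abundant transcripts of the 2 organs were only partly the same. The 1000 transcripts with the highest FPKM of each organ had 712 in common, the top 100 had 35 in common, and the top 10 had 1. Among the transcripts with a mean of 100 FPKM or more, the quartiles of the log2 ratio were -0.56 and 0.47. For all compared transcripts they were -0.85 and 0.46, and how much of this wider range is counting error was not tested. Between 20 and 100 FPKM the quartiles were -0.56 and 0.36. Past 2-fold toward daughter root were 15.2% at 100 FPKM or more and 11.1% between 20 and 100 FPKM. Toward mother root these shares were 14.4% and 12.6%. Past 10-fold they were 4.4% and 1.89% toward daughter root, and 1.09% and 1.02% toward mother root. The most abundant transcripts thus spread more than those of the next class. Over the 45656 compared transcripts with fragments in both libraries, Spearman's rho between the FPKM of the organs was 0.777 and Pearson's r of the log2 FPKM was 0.786. These correlations are across transcripts of 2 libraries that share one assembly and one set of lengths, and transcripts are not independent replicates.

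**Figure D2:**
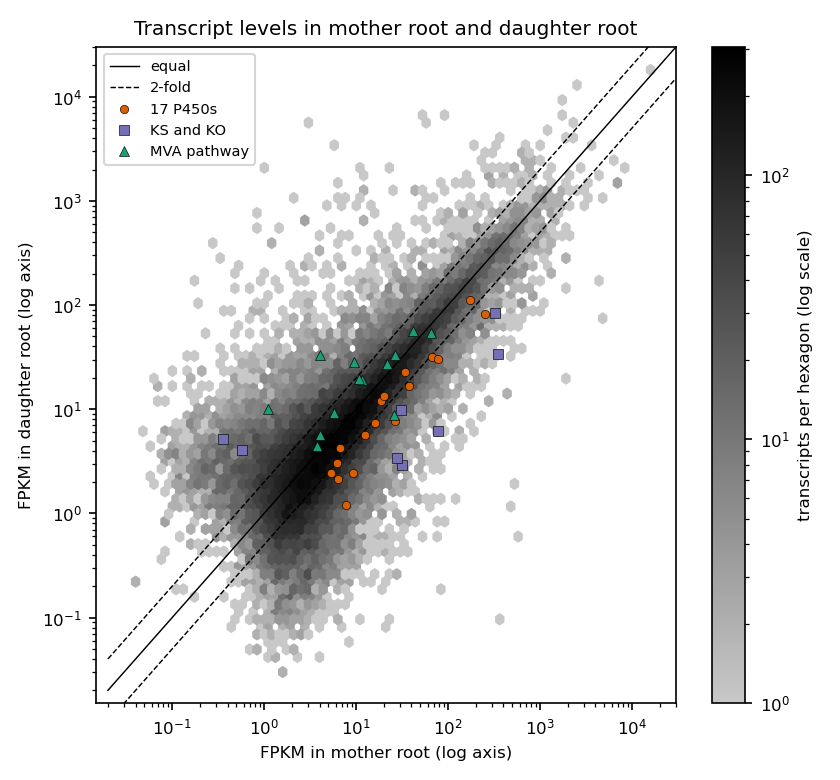
FPKM of each compared transcript in mother root and in daughter root, both on log axes, for the 45656 transcripts with fragments in both libraries. The shade gives the number of transcripts per hexagon, the solid line equal FPKM and the dashed lines 2-fold. The 17 P450 transcripts (orange circles) lie below the line of equal FPKM, as do 6 of the 8 compared KS and KO transcripts (purple squares), and 11 of the 13 MVA transcripts (green triangles) lie above it.

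The transcripts with the highest FPKM carried no description in the part of the annotation used here and are given by identifier. TR51009|c2_g1_i1 ranked first in both organs, at 15890 FPKM in mother root and 18051 in daughter root, a daughter/mother ratio of 1.14 (1.13 to 1.14). The next 4 of mother root were TR48524|c0_g1_i3 at 8279, TR46182|c2_g6_i1 at 7015, TR49259|c0_g1_i2 at 7002 and TR49259|c0_g1_i1 at 6458. In daughter root these 4 lay at 2186, 1536, 1461 and 1511 FPKM, and they were 3.79-fold to 4.79-fold higher in mother root. All 4 still ranked among the 75 most abundant of daughter root, so they were lower there but not low.

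The next 4 of daughter root were TR45464|c2_g6_i1 at 12563, TR45629|c4_g8_i4 at 9696, TR45629|c3_g1_i4 at 6679 and TR45629|c4_g5_i2 at 6189 FPKM. In mother root they lay at 2320, 1682, 84.5 and 58.7 FPKM. The first pair was abundant in both organs and the second pair only in daughter root, where the ratios to mother root were 79.1 (71.4 to 87.8) and 105 (86.2 to 130). The TR45629 component, a group of transcripts that the assembler joined through shared sequence, had 11 transcripts and held 0.247% of the mother root fragments and 1.31% of those of daughter root. No other component differed more in share toward daughter root. The daughter/mother ratio within it ranged from 1.03 to 116, and 8 of its 11 transcripts were past 2-fold. How fragments were split among transcripts of one component is uncertain, since they share sequence.

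The largest ratios among transcripts with at least 1000 fragments were also without a description. TR9350|c0_g1_i1, a transcript of 1270 bases, had 41 fragments in mother root and 84198 in daughter root, or 3.10 and 5861 FPKM. Its daughter/mother ratio was 1893 (1395 to 2638), and it ranked 9 in daughter root and 35901 in mother root. TR51427|c3_g1_i2 had 8 fragments in mother root and 16223 in daughter root, or 1.02 and 1910 FPKM, a ratio of 1868 (948 to 4328). The other 3 transcripts of its Trinity gene, the assembler's closest grouping, had 1, 9 and 18 fragments in mother root and 1574, 4834 and 13012 in daughter root. They were chosen after their values were seen. All 4 transcripts of this gene were thus low in mother root, at 0.28 to 5.67 FPKM, against 406 to 3768 FPKM in daughter root.

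In the other direction, TR55681|c1_g1_i1 had 39631 fragments in mother root and 10 in daughter root, or 388 and 0.09 FPKM. Its mother/daughter ratio was 4296 (2336 to 8960), and at 8813 bases it was far longer than the median compared transcript of 827 bases. The other 2 transcripts of its component, TR55681|c1_g2_i1 and TR55681|c1_g3_i1, had 301 and 88 fragments in mother root and 0 in daughter root. TR44121|c3_g2_i1 had 6591 fragments in mother root and 73 in daughter root, 2053 against 20.9 FPKM, a mother/daughter ratio of 98.2 (78.0 to 125). Its component did not move as a whole. TR44121|c6_g1_i4 had 4717 FPKM in mother root and 71.2 in daughter root, while TR44121|c6_g1_i3 had 741 in mother root and 1222 in daughter root. These components and their further transcripts were chosen after their values were seen.

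The organs also differed in single transcripts that made up a large share of the library. TR36775|c0_g1_i1 had 910 fragments in mother root and 117722 in daughter root, which was 0.00771% and 0.92% of the fragments, a ratio of FPKM of 119 (112 to 127). TR51937|c2_g1_i1 had 335 FPKM in mother root and 3905 in daughter root, a ratio of 11.7 (11.4 to 11.9). All 5 transcripts of the TR51155 component were at least 2-fold higher in daughter root, by ratios from 2.52 to 4.68. On the mother root side, TR36011|c3_g1_i1 had 4802 FPKM against 1170 in daughter root, and all 3 transcripts of the TR54623 component and all 5 of the TR54227 component were past 2-fold. The TR49797 component held 1.3% of the mother root fragments and 0.546% of those of daughter root, the largest difference in share toward mother root of any component. These transcripts were selected by their shift in fragment share after the values were seen.

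Transcripts found in only 1 of the organs were few and mostly weak. At least 10 fragments in daughter root and 0 in mother root were found for 545 transcripts, with a median of 15 fragments. The opposite was found for 314 transcripts, with a median of 14 fragments. Only 25 and 11 of them, respectively, had 100 fragments or more. Against the floor of 3 fragments, 103 of the 545 and 43 of the 314 were past 10-fold. TR43136|c0_g1_i1 had the most, 534 in daughter root (28.5 FPKM) and 0 in mother root. Against the floor its ratio toward daughter root was 164, with a lower counting limit of 133.0. TR41002|c1_g1_i1 had 312 in mother root (160 FPKM) and 0 in daughter root. Against the same floor its ratio toward mother root was 113, with a lower counting limit of 91.6.

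The enzymes of diterpene alkaloid biosynthesis did not share a direction. MVA and GGPPS transcripts were mostly higher in daughter root, KS and the abundant KO transcripts were higher in mother root, and MEP transcripts went both ways. The transcripts had been assigned to the enzymes by sequence homology. Of the 13 MVA transcripts, the counting limits lay on the daughter root side for 10 and on the mother root side for 2, against 20.7% and 31.1% of all transcripts compared. Counting limits narrow as fragments rise, so these shares also follow the counts of the members. The 13 come from 8 Trinity genes, so they are not separate measurements. Past 2-fold were 3 toward daughter root and 1 toward mother root, against 14.8% and 20.9% of all. The median log2 ratio was 0.49, against -0.21 for all.

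Acetyl-CoA acetyltransferase (AACT), which makes the first 4-carbon unit, had a summed FPKM over its 3 transcripts of 34.4 in mother root and 56.6 in daughter root. The weakest of them, TR49281|c2_g1_i10, had 8 fragments in mother root and 79 in daughter root, a daughter/mother ratio of 9.10 (4.40 to 21.8). The most abundant, TR49281|c2_g1_i2, had a ratio of 1.26 (1.11 to 1.44). HMG-CoA synthase (HMGS) is the next enzyme, and its transcript TR44745|c0_g1_i1 had 9.46 FPKM in mother root and 28.5 in daughter root, a ratio of 3.01 (2.54 to 3.58). TR50259|c0_g1_i1, listed under the same enzyme but described as an HMG-CoA lyase, went the other way, with 25.6 FPKM in mother root and 8.88 in daughter root.

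HMG-CoA reductase (HMGR), which makes mevalonate and is known as the main control point of the pathway in plants, had 3 transcripts with unlike ratios. TR50314|c1_g1_i1 had 26 fragments in mother root and 232 in daughter root, 4.06 against 33.3 FPKM, a daughter/mother ratio of 8.22 (5.47 to 12.8). TR50314|c2_g1_i5 had 64.5 FPKM in mother root and 53.6 in daughter root, and TR50314|c2_g1_i1 had 41.2 and 56.2. These share a Trinity gene, and how fragments were split between them is uncertain. Their levels were close in daughter root, so a change of the most abundant HMGR transcript is not shown. A further transcript described as HMG-CoA reductase 2, TR1777|c0_g1_i1, had 5.76 FPKM in mother root and 46.1 in daughter root, a ratio of 8.0 (4.83 to 14.1). The summed FPKM of the 3 listed transcripts differed less, at 110 in mother root and 143 in daughter root. The larger ratios were thus those of transcripts that were weak in mother root.

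The later MVA enzymes turn mevalonate into isopentenyl diphosphate, and each had a higher summed FPKM in daughter root. The 3 mevalonate kinase (MVK) transcripts summed to 13.6 FPKM in mother root and 19.3 in daughter root, and the limits of TR50024|c0_g1_i3 included 1. Phosphomevalonate kinase (PMK), TR52617|c1_g1_i4, had 10.6 and 19.4 FPKM, a daughter/mother ratio of 1.82 (1.56 to 2.14). Diphosphomevalonate decarboxylase (MVDD), TR50920|c0_g1_i1, had 26.6 and 33.0 FPKM. None of these 5 transcripts reached 2-fold as deposited, and PMK did with median-of-ratios scaling.

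Among the 18 transcripts listed for the MEP pathway, isopentenyl diphosphate isomerase (IPPI) included, 1 was past 2-fold toward daughter root and 4 toward mother root, against 14.8% and 20.9% of all transcripts compared. After median-of-ratios scaling the numbers were 4 and 4. The 1 was the weak transcript TR54138|c0_g1_i3, with 28 fragments in mother root and 69 in daughter root. It was listed under IPPI but described as nudix hydrolase 3-like. The counting limits lay on the daughter root side for 7 and on the mother root side for 9, against 20.7% and 31.1% of all transcripts. The 4 past 2-fold toward mother root were all weak transcripts of 1-deoxyxylulose-5-phosphate synthase (DXS), the entry enzyme, with 20 to 24 fragments in mother root and 1 to 11 in daughter root. TR11997|c0_g1_i1 had 24 fragments in mother root and 1 in daughter root, and the mother/daughter ratio was 26.1 (4.25 to 1072). The most abundant DXS transcript, TR46556|c4_g1_i1, had 14.2 FPKM in mother root and 14.6 in daughter root, and the limits on the ratio included 1.

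The enzymes after DXS did not move together. The reductoisomerase DXR, TR43149|c0_g1_i1, had 36.4 FPKM in mother root and 18.4 in daughter root, a mother/daughter ratio of 1.98 (1.76 to 2.23). ISPD, which acts after it, was higher in daughter root, where its 2 transcripts had 18.6 and 19.3 FPKM, against 9.41 and 10.6 in mother root. ISPE had 11.6 FPKM in mother root and 14.4 in daughter root. ISPF and ISPG, at 75 and 136 FPKM in mother root, were 1.42-fold and 1.56-fold higher there, and ISPH, the last enzyme, was 1.16-fold higher in daughter root. IPPI interconverts both 5-carbon units, and its main transcript TR42449|c0_g2_i1 had 185 FPKM in mother root and 167 in daughter root. That difference turned to a daughter/mother ratio of 1.01 under median-of-ratios scaling. The pathway thus held abundant transcripts on either side of 1.

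All 5 GGPPS transcripts had a higher FPKM in daughter root. The counting limits excluded 1 for 4 of them, against 20.7% of all transcripts with limits on that side. Their summed FPKM was 40.1 in mother root and 66.8 in daughter root. TR49767|c0_g1_i4 had 9.64 FPKM in mother root and 16.3 in daughter root, and TR47741|c1_g1_i1, the only GGPPS transcript past 2-fold as deposited, had 7.62 and 15.2. Its ratio of 2.0 lay at the threshold and was 1.97 with TPM, while TR47741|c1_g1_i2 passed it with median-of-ratios scaling, at 2.05. The 5 come from 3 Trinity genes, so they are not separate measurements of one shift. CDPS was weak in both organs. Its 3 transcripts, of 1 Trinity gene, summed to 4.11 FPKM in mother root and 2.51 in daughter root, and the limits of the ratio included 1 for both that were compared.

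KS differed more between the organs than any other pathway transcript above 100 FPKM. TR44184|c3_g1_i2 had 11288 fragments in mother root and 1195 in daughter root, 350 against 34.1 FPKM. TR52848|c0_g1_i1 had 30.9 FPKM in mother root and 9.85 in daughter root, so both transcripts were past 2-fold in the same direction. Their summed FPKM was 8.65-fold higher in mother root. For the more abundant one, median-of-ratios scaling left the daughter/mother ratio at 0.11.

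KO transcripts formed 2 sets with opposite ratios. The most abundant, TR40067|c2_g1_i1, had 320 FPKM in mother root and 83.4 in daughter root. TR70877|c0_g1_i1 had 77.2 and 6.14, TR27131|c0_g1_i1 had 31.7 and 2.92, and TR27131|c0_g1_i2 had 27.6 and 3.38. These 4 were 3.84-fold to 12.6-fold higher in mother root. TR53909|c0_g1 is a further Trinity gene of KO, and its 2 compared transcripts went the other way. TR53909|c0_g1_i2 had 6 fragments in mother root and 93 in daughter root, a daughter/mother ratio of 14.3 (6.32 to 39.9), and TR53909|c0_g1_i7 had 11 and 84, a ratio of 7.04 (3.74 to 14.6). The other 3 KO transcripts of this gene stayed below 10 fragments. At 5.13 FPKM or less, the TR53909|c0_g1 transcripts were a small part of the KO total, which was 458 FPKM in mother root and 108 in daughter root.

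**Figure D3:**
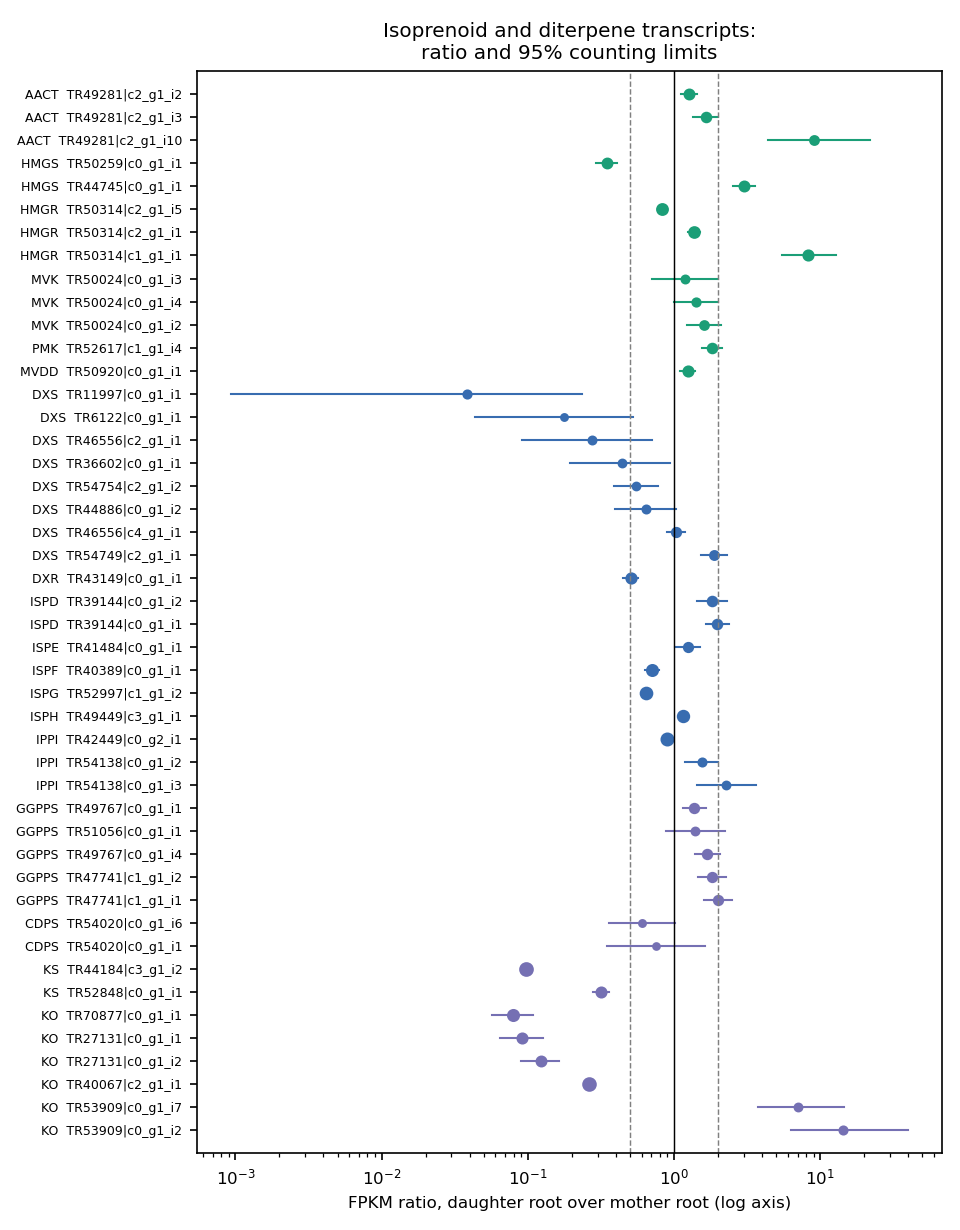
Ratio of daughter root to mother root (log axis) for each compared transcript of the MVA pathway (green), the MEP pathway with IPPI (blue), and GGPPS, CDPS, KS and KO (purple), in pathway order. Bars are 95% counting limits, the size of a point grows with the higher FPKM, and dashed lines mark 2-fold. Both KS and 4 of 6 KO transcripts lie at ratios of 0.32 or less, whereas all 5 GGPPS transcripts lie above 1.

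Cytochrome P450s were examined through 17 transcripts. The study had placed them in a cluster with the diterpene alkaloids by correlation. That cluster was drawn from these same libraries, so the direction of its members is not independent evidence. The heme iron of a P450 is held by a cysteine in a conserved loop near the end of the protein, and this loop was searched for in the nucleotide sequences given for these transcripts. It was found in 12 of them, in which its cysteine codon was TGC in 7 and TGT in 5. The loops of the 6 most abundant of the 12 in mother root are shown because these transcripts held most of the P450 difference between the organs. The 30 bases of the loop are in capitals, with 15 bases of flanking coding sequence on each side, and capitals 22 to 24 are the cysteine codon.

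TR48287|c0_g1_i1: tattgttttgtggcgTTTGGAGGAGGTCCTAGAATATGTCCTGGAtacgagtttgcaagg
TR52743|c4_g3_i1: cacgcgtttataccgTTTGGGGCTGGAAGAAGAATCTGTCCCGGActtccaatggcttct
TR54550|c2_g1_i4: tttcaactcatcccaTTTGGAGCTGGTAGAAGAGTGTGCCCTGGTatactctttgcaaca
TR39654|c0_g2_i5: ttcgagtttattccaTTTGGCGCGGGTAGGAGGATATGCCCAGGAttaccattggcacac
TR40787|c1_g1_i1: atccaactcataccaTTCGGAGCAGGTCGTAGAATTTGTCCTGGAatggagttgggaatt
TR47105|c2_g1_i1: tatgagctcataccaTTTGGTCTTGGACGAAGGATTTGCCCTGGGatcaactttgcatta

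Over the 15 pairs of these loops, 19 to 26 of the 30 bases were identical, most between TR48287|c0_g1_i1 and TR40787|c1_g1_i1. The loops differed at the base level in each pair, so these 6 transcripts are distinct in this stretch.

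All 17 P450 transcripts had a higher FPKM in mother root. They numbered 12 past 2-fold toward mother root and 0 toward daughter root, and the counting limits excluded 1 for 16. Among all transcripts compared, 20.9% and 14.8% were past 2-fold, but these shares are no test of members chosen by direction. Their median log2 daughter/mother ratio was -1.14. The summed FPKM was 776 in mother root and 357 in daughter root. After median-of-ratios scaling 7 were past 2-fold, and the median was -0.97, so many of the transcripts lay close to the threshold.

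TR48287|c0_g1_i1 was the most abundant, at 250 FPKM in mother root and 81.8 in daughter root, a mother/daughter ratio of 3.06 (2.88 to 3.24). TR52743|c4_g3_i1 followed with 173 and 112 FPKM, a ratio of 1.55 (1.46 to 1.63). It therefore ranked first among the 17 in daughter root. TR54550|c2_g1_i4 had 77.9 and 30.6 FPKM, while TR54550|c2_g1_i6 of the same Trinity gene had 34.1 and 22.6. TR39654|c0_g2_i5 had 66.6 and 31.7, TR40787|c1_g1_i1 had 38.0 and 16.6, and TR47105|c2_g1_i1 had 26.4 and 7.69. The largest mother/daughter ratio was that of TR19870|c0_g1_i1, at 6.51 (3.31 to 14.3), from 60 and 10 fragments. Smaller differences were those of TR48278|c4_g1_i6 and TR47402|c0_g1_i2, at 1.5 and 1.55. For TR39654|c0_g1_i1, with 49 and 34 fragments, the limits included 1 and no difference was detectable at this depth.

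The remaining P450s of the cluster were weaker. TR49987|c0_g2_i8 had 9.27 FPKM in mother root and 2.46 in daughter root, and TR53321|c0_g1_i2 had 6.30 and 2.12. TR35225|c0_g2_i1, TR54317|c1_g1_i4, TR42868|c0_g3_i1 and TR52960|c0_g1_i4 were 2.0-fold to 2.22-fold higher in mother root. These 4 fell below 2-fold once the median-of-ratios shift was applied, and TR39654|c0_g2_i5 did as well.

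**Figure D4:**
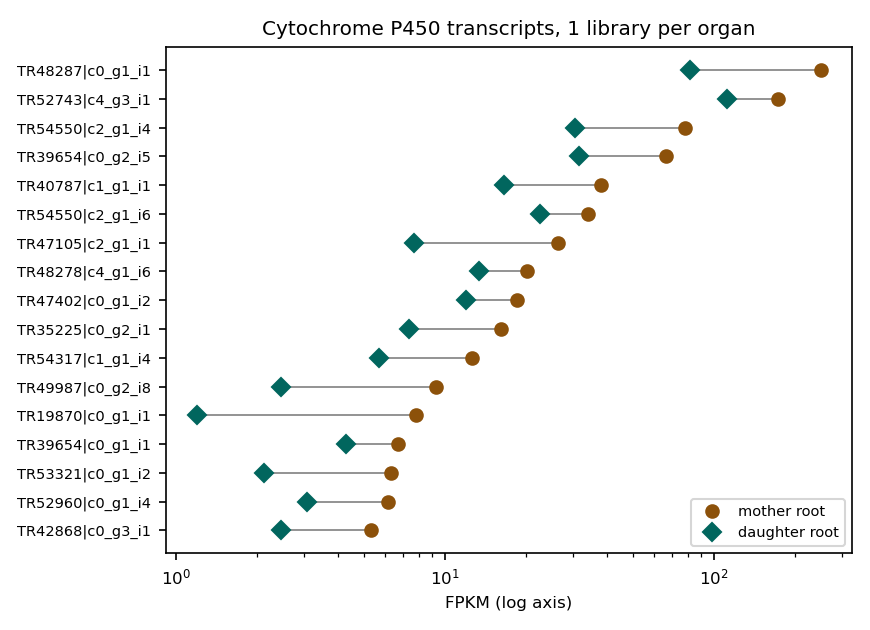
FPKM (log axis) of the 17 P450 transcripts in mother root (brown circles) and daughter root (green diamonds), 1 library each, ordered by the level in mother root. The mother root value is the higher one for each transcript, from 5.34 against 2.46 for TR42868|c0_g3_i1 to 250 against 81.8 for TR48287|c0_g1_i1.

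A further 4 P450 transcripts carried only the description cytochrome P450 and were in a separate part of the annotation. TR10121|c0_g1_i1, of 2119 bases, had 2262 fragments in mother root and 247 in daughter root, 97.2 against 9.79 FPKM, a mother/daughter ratio of 9.93 (8.70 to 11.4). TR10271|c0_g1_i1 had 329 and 145 FPKM. All 4 were at least 2-fold higher in mother root, against 20.9% of all transcripts compared. The mother/daughter ratio was 9.93 for the first and 2.27 to 3.10 for the others. These transcripts were not among the 17.

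For the rest of the transcriptome, functions were read from the descriptions of 383 compared transcripts, the ones for which the annotation used here gave a description. They were shorter than the bulk, with a median length of 364 bases, and 110 of them named a protein and had at least 100 fragments in the higher library. A single description came from a match outside plants and was left out, and the median log2 daughter/mother ratio of the other 382 was -0.19, next to -0.21 for all. The lists below therefore sample the organs and do not cover them, and counts within them are small. Each list is described by its members only.

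Cell wall enzymes were mostly higher in daughter root. Of 6 compared transcripts, 5 were past 2-fold toward daughter root and 0 toward mother root, against 14.8% and 20.9% of all transcripts. The median log2 daughter/mother ratio was 1.46. Xyloglucan endotransglycosylase/hydrolase 3, TR17540|c0_g1_i1, which cuts and rejoins the xyloglucan that links cellulose fibres, had 5 fragments in mother root and 345 in daughter root. This was 2.66 against 169 FPKM, a ratio of 63.3 (26.9 to 196). Cellulose synthase TR13416|c0_g1_i1 had 24.2 FPKM in mother root and 110 in daughter root, a ratio of 4.53 (3.58 to 5.79), and a further cellulose synthase, TR13828|c0_g1_i1, had 70.6 and 159, a ratio of 2.26 (1.94 to 2.63). The remaining 3 members had 18 fragments or fewer in either organ, and for 2 of those, TR393|c0_g1_i1 and TR17807|c0_g1_i1, the limits included 1. TR1495|c0_g1_i1 had 0 fragments in mother root and 11 in daughter root, and its ratio of 3.36 was one against the floor.

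Among named proteins outside that list, pEARLI 1, TR1414|c0_g1_i1, a lipid-transfer-like wall protein known from *Arabidopsis*, had 74 fragments in mother root and 8782 in daughter root, 11.2 against 1224 FPKM. Its daughter/mother ratio was 109 (87.0 to 139), the largest of any transcript with a named protein and at least 100 fragments. An L-ascorbate oxidase homolog, TR15649|c0_g1_i1, had 5.43 and 134 FPKM, a ratio of 24.7 (16.6 to 38.5). Beta tubulin TR17898|c0_g1_i1 had 32.0 and 64.8 FPKM, a ratio of 2.03 (1.66 to 2.49). Of the 8 histone, tubulin and kinesin transcripts compared, 2 were past 2-fold toward daughter root and 1 toward mother root, against 14.8% and 20.9% of all transcripts. The 1 was an alpha tubulin with 11 fragments in mother root and 3 in daughter root, named after its values were seen. Histone H3, TR16423|c0_g2_i1, had 331 FPKM in mother root and 382 in daughter root, and histone H2A, TR15402|c0_g1_i1, had 135 and 116.

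ACC oxidase, TR17273|c2_g1_i1, the last enzyme of ethylene synthesis, was the most abundant transcript of any functional list in daughter root. It had 4069 fragments in mother root and 30889 in daughter root, 318 against 2223 FPKM, a daughter/mother ratio of 7.0 (6.77 to 7.23). 1,4-alpha-glucan branching enzyme, TR15421|c0_g1_i1, which puts the branches into starch, had 15.3 FPKM in mother root and 138 in daughter root, from 14 and 138 fragments. Its ratio was 9.0 (5.18 to 16.9). The other compared transcript of the starch list, a glucan water dikinase that acts in starch breakdown, had 15 fragments in mother root and 6 in daughter root, and the limits included 1.

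The list of the citrate cycle and oxidative phosphorylation, which also took in a plasma membrane proton pump, had 6 compared transcripts, 3 of them described as the alpha subunit of succinyl-CoA ligase. The limits lay on the daughter root side for 3 of the 6 and included 1 for the others, against 20.7% of all transcripts on that side. Past 2-fold toward daughter root was 1, against 14.8% of all transcripts. The iron-sulfur subunit of the cytochrome bc1 complex, TR708|c0_g1_i1, had 17.7 FPKM in mother root and 27.7 in daughter root. Aconitate hydratase, TR18129|c0_g1_i1, had 84.3 and 89.4, with limits that included 1. Ribosomal proteins were close to even. Of 14 transcripts, 1 was past 2-fold toward mother root and 0 toward daughter root, against 20.9% and 14.8% of all transcripts. The median log2 ratio of -0.09 became 0.08 with median-of-ratios scaling. Ribosomal protein S9 of the small subunit, TR14216|c0_g1_i1, had 354 FPKM in mother root and 318 in daughter root. The limits included 1, and the daughter/mother ratio turned to 1.01 with that scaling.

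Heat shock proteins and chaperones, which help other proteins fold, were mostly higher in mother root. Of 16 compared transcripts, 9 were past 2-fold toward mother root and 2 toward daughter root, against 20.9% and 14.8% of all transcripts. The median log2 daughter/mother ratio was -1.32, against -0.21 for all. TR14514|c0_g1_i1, described as heat shock, had 230 FPKM in mother root and 27.0 in daughter root, a mother/daughter ratio of 8.50 (6.26 to 11.8). HSP70, TR16771|c0_g1_i1, had 91.8 and 26.1 FPKM, and a heat shock protein of the HSP90 family, TR15545|c0_g1_i1, had 155 and 52.5. The most abundant member, a cytosolic HSP70, TR17370|c0_g1_i1, had 929 FPKM in mother root and 574 in daughter root, a ratio of 1.62 (1.5 to 1.74). A chaperonin of the TCP-1/cpn60 family, TR1261|c0_g1_i1, went the other way, with 42.4 and 67.4 FPKM. The 2 past 2-fold toward daughter root had 24 and 16 fragments there and 2 and 7 in mother root.

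Defence proteins differed in both directions. Of 6 compared transcripts, 1 was past 2-fold toward daughter root and 3 toward mother root, against 14.8% and 20.9% of all transcripts. Pathogenesis-related 1 was represented by 2 transcripts with opposite ratios. TR17268|c0_g1_i1 had 120 fragments in mother root and 2946 in daughter root, 15.3 against 346 FPKM, a daughter/mother ratio of 22.6 (18.8 to 27.4). TR1069|c0_g1_i1 had 43 fragments in mother root and 1 in daughter root, a daughter/mother ratio of 0.0213 (0.000527 to 0.125). The acidic endochitinase TR13429|c0_g1_i1, which cuts chitin of fungal walls, had 229 FPKM in mother root and 141 in daughter root. Both defensins, antimicrobial peptides, were lower in daughter root, with 84 and 35 fragments in mother root and 13 and 3 in daughter root. TR1069|c0_g1_i1 and the defensins were named after their values were seen.

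The list of transferases and oxidases of alkaloid type, drawn by description, showed 1 large difference. Norcoclaurine synthase catalyses the first committed step of benzylisoquinoline alkaloids, a class separate from the diterpene alkaloids. The transcript described so, TR14377|c0_g1_i1, had 821 fragments in mother root and 28 in daughter root, 440 against 13.8 FPKM, a mother/daughter ratio of 32.0 (21.9 to 48.4). This was the largest ratio toward mother root of any transcript with a named protein and at least 100 fragments. The transcripts described as a taxane benzoyltransferase, TR14943|c0_g1_i1 and TR14943|c1_g2_i1, had 324 and 193 FPKM in mother root and 224 and 119 in daughter root. The 2 described as O-methyltransferases were higher in daughter root. TR810|c0_g1_i1, described as an orcinol O-methyltransferase, had 42.7 FPKM in mother root and 123 in daughter root. TR17447|c0_g1_i1, described as an 8-hydroxyquercetin 8-O-methyltransferase, had 40.2 and 99.7. Neither description names an alkaloid as the substrate. Of these 5 transcripts, 2 were past 2-fold toward daughter root and 1 toward mother root, against 14.8% and 20.9% of all transcripts.

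A further 4 named proteins with large ratios toward mother root belonged to none of the lists. A pyridoxine biosynthesis protein, TR1547|c1_g1_i1, which makes vitamin B6, had 295 FPKM in mother root and 61.8 in daughter root, a mother/daughter ratio of 4.78 (3.83 to 6.01). Methionine synthase, TR15299|c0_g1_i1, had 264 and 70.5, a ratio of 3.74 (2.96 to 4.76). A UDP-glycosyltransferase, TR13885|c0_g1_i1, which adds sugars to small molecules, had 213 and 61.1 FPKM, and a protein with an MA3 domain, TR11130|c0_g1_i1, had 140 and 28.2. These 4 transcripts were 227 to 316 bases long, so each can cover only part of a gene.

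Of 16 membrane transporters, 3 were past 2-fold toward daughter root and 4 toward mother root, close to the 14.8% and 20.9% of all transcripts, and the limits excluded 1 for 2 and 4 of them. The most abundant, aquaporin PIP1 2 TR13712|c0_g1_i1, had 30.2 FPKM in mother root and 39.0 in daughter root, and the limits included 1. The 7 receptor kinases had 14 fragments or fewer in either organ. Of 116 transcripts listed as transposable elements, only 6 were compared. Past 2-fold were 4 toward mother root and 0 toward daughter root, against 20.9% and 14.8% of all transcripts. These 4 had 10 to 33 fragments in mother root and 1 to 3 in daughter root. They reached the minimum of 10 fragments through mother root alone, so their direction is tied to that minimum. The largest had 33 fragments in mother root and 1 in daughter root, a mother/daughter ratio of 35.8 (5.99 to 1456) for TR16939|c0_g1_i1. The abundant transcription factors were within 2-fold. GATA transcription factor 9-like, TR16127|c0_g2_i1, had 141 and 98.0 FPKM, and Pur-alpha 1, TR16747|c0_g1_i1, had 106 and 151. Peroxidase 12, TR14431|c0_g1_i1, had 95.6 FPKM in mother root and 141 in daughter root, and a pentatricopeptide repeat protein, TR1177|c0_g1_i1, had 93.8 and 59.4.

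**Figure D5:**
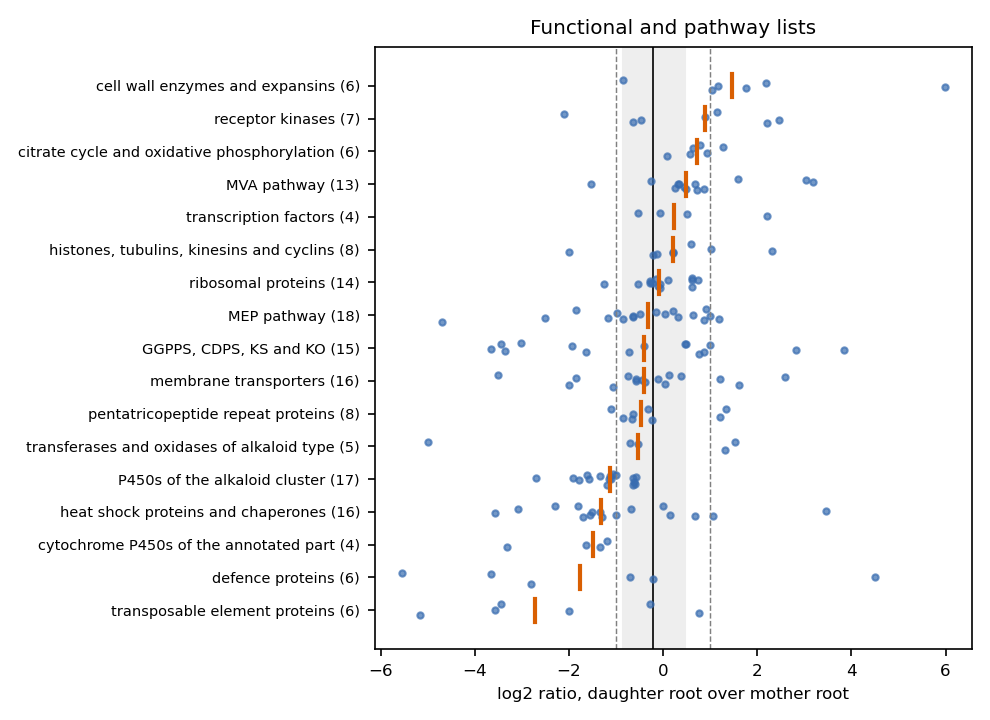
Log2 daughter/mother ratio for the members of each list with at least 4 compared transcripts (blue points, number in parentheses), with the median of each list in orange. The black line and grey band are the median (-0.21) and the quartiles of all 46515 transcripts, and dashed lines mark 2-fold. Cell wall enzymes have the highest median, at 1.46, and transposable element proteins the lowest, at -2.72.

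A ratio per transcript can differ from a ratio per gene when transcripts of 1 gene trade places. Of 6684 Trinity genes with at least 2 transcripts and at least 50 fragments in each library, 1679 (25.1%) had a different most abundant transcript in the 2 organs. In 108 genes, 1.62% of the 6684, both transcripts also changed their share of the gene by at least 20 percentage points. Of 8575 genes with 2 or more compared transcripts, 225 (2.62%) had transcripts past the counting limits in opposite directions, while 2043 had them toward daughter root only and 3690 toward mother root only. Within a gene, the median spread of the log2 ratio was 0.51.

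The largest exchanges among genes with at least 200 fragments in each library were chosen after their values were seen. In TR44121|c6_g1, the main transcript of mother root held 75.9% of the FPKM of the gene there and 3.0% in daughter root, where another held 51.4%. In TR42719|c1_g1, the main transcript of mother root held 74.0% there and 11.1% in daughter root. A P450 gene was among the 20 largest exchanges. In TR54317|c1_g1, the transcript i7 held 45.2% in mother root and 6.06% in daughter root, while i9 held 16.1% in mother root and 71.6% in daughter root. The transcript of the alkaloid cluster, TR54317|c1_g1_i4, lay between them with 38.8% and 22.4%, and i9 had 5.24 FPKM in mother root and 18.2 in daughter root. The direction of the clustered transcript was therefore not that of every transcript of its gene.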

How the data were processed

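The authors cleaned the reads in Trimmomatic, built 1 assembly from all 4 tissues in Trinity, reduced its redundancy in CD-HIT-EST, and mapped each library back with Bowtie 2 for quantification by RSEM. Deposited values used here are expected counts of fragments, which were whole numbers here, and FPKM, which the authors took from RSEM and which are relative to effective length and library total. Genome positions are not given, as no genome of the species was at hand. The tables of mother root and daughter root were joined on the transcript identifier in Python 3.11.15 (numpy 2.4.6, pandas 2.3.3, scipy 1.17.1). FPKM was compared as deposited, with a floor of 3 fragments for a library at 0. Ratios carry exact 95% conditional binomial (Clopper-Pearson) limits on the counts, and no test between organs was possible with 1 library each. The calculation was tested on simulated data. Lists came from the descriptions in the part of the study's annotation used here, without those whose best match lay outside plants. Named transcripts were all those of the pathway and P450 lists, the most abundant and most changed of each list, the 8 largest ratios in each direction among named proteins with at least 100 fragments, and the most abundant and most changed without a description. Members, lists and rules were chosen with earlier results of these data known. Alternatives were TPM, median-of-ratios factors (1.06 for mother root, 0.942 for daughter root), 20 draws of daughter root to the mother root total, other fragment minimums, pseudocounts, sums per Trinity gene and a 4-fold threshold.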

Additional observations from a re-analysis of the deposited data

How the results depend on the processing

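The median log2 ratio of all transcripts stayed negative under each alternative for which it was computed. Named ratios were recomputed only with TPM, median-of-ratios scaling and equal depth, and none past 2-fold changed direction. TPM and median-of-ratios scaling multiply every ratio by a constant close to 1, so they could not turn a ratio past 2-fold. Named ratios were not recomputed with pseudocounts or sums per Trinity gene. TPM and equal depth left the median log2 daughter/mother ratio at -0.24 and -0.23, and median-of-ratios scaling moved it to -0.04. The counts past 2-fold followed the fragment minimum and the fold. Toward daughter root and mother root they were 19068 and 29554 with at least 1 fragment, 4023 and 4488 with at least 30, 2147 and 2067 with at least 100, and 2952 and 3137 at 4-fold. A pseudocount of 1 FPKM left 6421 toward mother root. With at least 100 fragments the excess on the mother root side was gone. With at least 30 fragments the median log2 ratio of the MEP list was 0.13 in place of -0.33, since weak DXS transcripts dropped out, and that of the starch list was 3.17 from 1 transcript. At least 200 fragments per gene left 661 genes with a different main transcript, fewer by construction. Of 147 named transcripts, 42 moved beyond their counting limits with median-of-ratios scaling, 3 with TPM and 0 at equal depth. The number of P450s of the alkaloid cluster past 2-fold went from 12 to 7 with median-of-ratios scaling. No paired analysis was possible because each organ has 1 library.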

Other observations

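The minimum of 10 fragments set which transcripts were compared, and its edge was smooth. Transcripts whose higher count was exactly 10 had a median log2 daughter/mother ratio of -0.44, and those at 9 fragments, just left out, had -0.48. At this edge a ratio past 2-fold is often within counting error.

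Each organ is 1 library from 1 replicate, so plant, harvest, extraction and organ cannot be told apart. The descriptions cover 383 of the 46515 transcripts compared, and among the 131 transcripts at least 10-fold higher in daughter root and at 100 FPKM or more there, 5 had one. For mother root it was 1 of 42. The transcripts that differed most by amount are therefore known here by identifier only, and how RSEM split fragments among transcripts of shared sequence was not tested.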
